A study of Homo sapiens with 6 samples.

Results

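The synaptotagmin family was followed in RNA of the 786-O line, human clear cell renal carcinoma cells grown in culture. The 10 members are the rows of the deposited tables named SYT1, SYT5, SYT7, SYT11, SYT12, SYT13, SYT14, SYT15, SYT16 and SYT17, out of 61860 gene rows. SYT13 was chosen by its log2 fold change in this same comparison, the largest rise among the more abundant genes. Its values are therefore given as a description, with no test.

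The knockdown cells stably expressed an shRNA that targets METTL3, the enzyme that writes N6-methyladenosine (m6A) into mRNA. The control cells stably expressed a control shRNA, and there were 3 libraries of each. By its title the series asks what m6A does in renal cancer that accumulates L-2-hydroxyglutarate, and all 6 libraries come from the same line. The labels do not say how many shRNA sequences were used, whether the stable cells are 1 clone, or whether replicates are separate cultures. The p-values therefore rest on a spread between libraries that may be technical only. Libraries are called A, B and C within each group, after the letters of the deposited columns, and values per library are given in that order. Total counts per library ran from 100534896 to 103624456. METTL3 had 1064, 956 and 1145 counts in the knockdown libraries, against 3874, 4060 and 4141 counts in the control libraries. It averaged 10.8 ± 0.872 CPM (counts relative to the scaled library total) in the knockdown libraries and 37.6 ± 0.433 CPM in the control libraries (SD, n = 3 each), and fell by 1.80 on the log2 scale (SE 0.08, edgeR adjusted p = 1.45e-07). Of the renal markers, PAX8, KRT8, KRT18 and VIM were abundant in all 6 libraries (PAX8 at 14670 to 18890 counts), whereas CA9 had at most 2 counts in a library.

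Synaptotagmins are membrane proteins of secretory vesicles and the plasma membrane that carry tandem C2 domains, modules that bind phospholipids. In some members, SYT1, SYT5 and SYT7 among them, the C2 domains bind calcium and trigger SNARE-driven fusion of a vesicle with its target membrane. Others, SYT13, SYT11, SYT12 and SYT15 among them, lack residues needed to bind calcium and are thought to act in trafficking without it.

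The letters GGACT are a common form of the core sequence in which METTL3 methylates the adenosine. They were searched on the sense strand of the reference transcript of each member (GENCODE 29, GRCh38), and the windows are shown because they place the candidate target letters of the enzyme in the family's mRNAs. The SYT13 transcript of 5144 bases in 6 exons holds GGACT 3 times, once in the coding sequence (exon 3) and at 2 places in the 3′ UTR (exon 6). The 21-base windows below are written 5′ to 3′ along the transcript, with GGACT in capitals. They lie at chr11:45254304-45254324 (site 1), chr11:45243230-45243250 (site 2) and chr11:45242706-45242726 (site 3), all on the minus strand. The adenosines of sites 2 and 3 are 814 and 1338 bases past the first base of the stop codon.
SYT13 site 1, coding: tactgcctGGACTatgactgt
SYT13 site 2, 3′ UTR: ctgctcttGGACTgaattttg
SYT13 site 3, 3′ UTR: gtaagataGGACTaatgacta

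In 4 other members a coding window whose letters after GGACT resemble those of site 1 is shown for comparison. They lie at chr12:79448936-79448956 on the plus strand (SYT1, exon 11), chr11:61524471-61524491 on the minus strand (SYT7, exon 6), chr19:55173646-55173666 on the minus strand (SYT5, exon 9) and chr1:155868417-155868437 on the plus strand (SYT11, exon 2). Another coding window of SYT11, in the same exon, continues after GGACT with the letters atg, as site 1 of SYT13 does, and is not shown. The remaining coding windows of SYT5 and SYT7, and those of SYT12, SYT14, SYT15, SYT16 and SYT17, continue with other letters after GGACT and are not shown.
SYT1, coding: actgttttGGACTatgacaag
SYT7, coding: caagtcctGGACTatgaccgc
SYT5, coding: accgtgctGGACTacgacaag
SYT11, coding: ttctcagtGGACTataacttc

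SYT13, SYT1 and SYT7 share the longer run GGACTATGA in their coding sequence, a run chosen after the windows had been seen. It occurs in 306 of 13820 reference transcripts of tested coding genes (2.21%). The members are related genes with the same kind of domain, so that share is no background for a coding run they have in common. GGACT itself occurs in 91.3% of those transcripts, with a median of 0.945 per kilobase. By that measure SYT13 (0.583 per kilobase), SYT1 (0.624) and SYT11 (0.573, 3 occurrences) were below the median. SYT12 (1.323, 6 occurrences) and SYT7 (1.854, 9 occurrences, 7 of them in the 3′ UTR) were above it. SYT15 held GGACT once, at 0.73 per kilobase. The density of SYT13 exceeded that of 26.2% of tested coding genes, and that of SYT7 exceeded that of 88.1%. No methylation was measured in these libraries, so a match is a stretch of letters and not a known site.

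SYT13 (ENSG00000019505, chr11:45240301-45286319, minus strand) is an atypical synaptotagmin known from neurons and, in mouse, from endocrine precursors of the pancreas. It had 1441, 1745 and 1294 counts in the knockdown libraries, against 323, 349 and 262 counts in the control libraries. Every knockdown library held several times the counts of any control library, and the groups were far apart. Scaled to the library, this was 15.4 ± 2.53 CPM in the knockdown libraries and 2.92 ± 0.474 CPM in the control libraries (SD, n = 3 each). The level was 5.27-fold higher, or 2.40 on the log2 scale. In bulk RNA, a change in the number of cells that express a gene and a change in the RNA per cell cannot be told apart.

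By log2 fold change SYT13 was number 22 of 18740 tested genes, and number 1 of the 12526 that averaged at least 2 CPM, the values by which it was chosen. The next of those, ENSG00000227706, stood at 2.31. The median over all tested genes was -0.003, and the median size of a log2 fold change was 0.25. In FPKM, a deposited level per transcript length, SYT13 had 2.93, 3.53 and 2.61 in the knockdown libraries, against 0.64, 0.70 and 0.52 in the control libraries. Of all tested genes, 43.9% ± 2.25 had a lower FPKM than SYT13 in the knockdown libraries and 23.6% ± 2.24 in the control libraries (SD, n = 3 each). SYT13 was thus below the middle of the tested genes in both groups. An antisense gene, ENSG00000254497, shares 135 exon bases with SYT13 (2.49% of its exon bases) and had 0 counts in all 6 libraries.

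**Figure D1:**
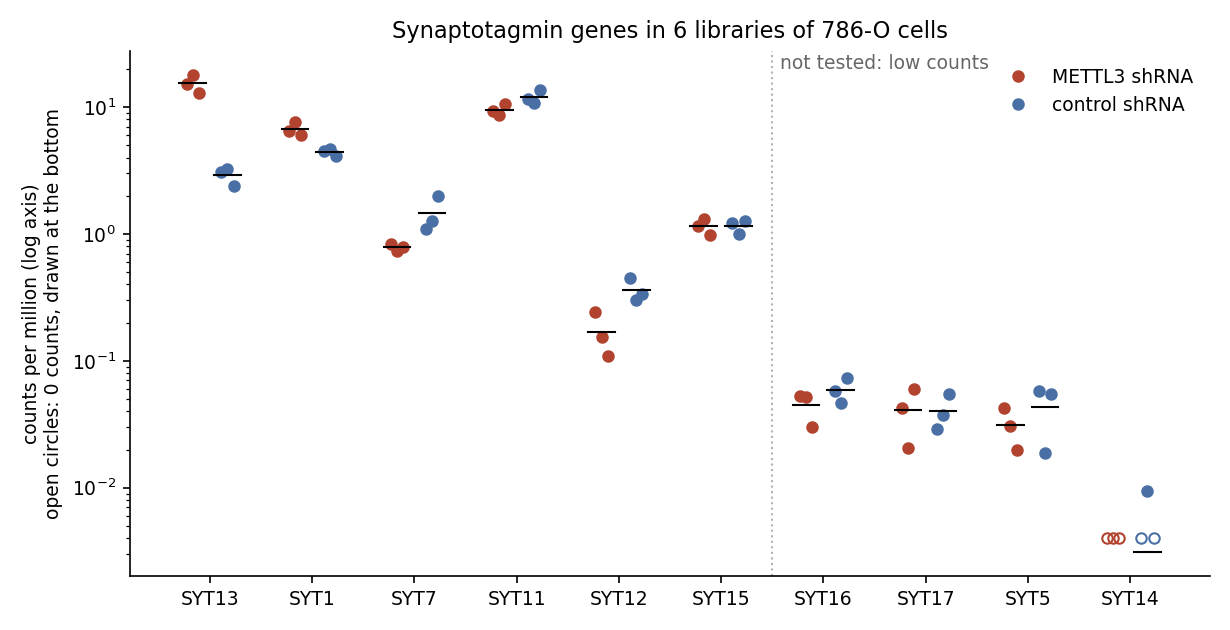
CPM of the 10 synaptotagmin genes on a log axis, with METTL3 shRNA libraries left of control shRNA libraries for each gene, 1 point per library (A, B, C from left to right) and a line at the group mean. SYT13 averaged 15.4 CPM in knockdown and 2.92 CPM in control libraries, while the 4 genes right of the dotted line stayed below 0.1 CPM.

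Besides SYT13, 5 members reached the count needed for testing, and of these 1 rose, 3 fell and 1 did not pass the test at an adjusted p under 0.05. The background is wide: 33.5% of all 18740 tested genes passed, 16.5% as higher and 16.9% as lower in the knockdown libraries. The other 4 members were too low to test. The groups did not overlap in CPM for SYT1, SYT7, SYT11 and SYT12, a state shared by 47.4% of all tested genes.

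Among the members that do not depend on calcium, SYT11 (ENSG00000132718, chr1:155859509-155885199, plus strand) was the most abundant in the control cells. In rodent neurons and macrophages it restrains membrane uptake and secretion. It had 885, 837 and 1066 counts in the knockdown libraries, against 1211, 1153 and 1487 counts in the control libraries. The highest knockdown library was close below the lowest control library. SYT11 averaged 9.54 ± 1.02 CPM in the knockdown libraries and 12.0 ± 1.38 CPM in the control libraries (SD, n = 3 each), and fell by 0.33 on the log2 scale (SE 0.11, edgeR adjusted p = 0.0319). The edgeR call did not hold without knockdown library A (adjusted p = 0.0866), knockdown library B (adjusted p = 0.14), control library A (adjusted p = 0.0511) or control library C (adjusted p = 0.128), while the direction was the same in each.

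SYT12 (ENSG00000173227, chr11:67006778-67050863, plus strand), known in rodents as a vesicle protein that is phosphorylated by protein kinase A, was rare. It had 23, 15 and 11 counts in the knockdown libraries, against 47, 32 and 37 counts in the control libraries. All knockdown libraries were below all control libraries, at levels where single reads matter. Its mean was 0.169 ± 0.0681 CPM in the knockdown libraries and 0.363 ± 0.0791 CPM in the control libraries (SD, n = 3 each), and it fell by 1.10 on the log2 scale (SE 0.34, edgeR adjusted p = 0.0232). This edgeR call was lost without knockdown library B (adjusted p = 0.0892), knockdown library C (adjusted p = 0.0798) or control library A (adjusted p = 0.0884). The ratio of its deposited FPKM to its count varied 1.73-fold between libraries, so its FPKM did not follow its counts closely.

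SYT15 (ENSG00000204176, chr10:46578217-46594173, plus strand), a member without calcium binding found in many tissues outside the brain, did not pass the test. It had 109, 127 and 98 counts in the knockdown libraries, against 126, 107 and 139 counts in the control libraries, and the groups overlapped. Its log2 fold change was -0.02 (SE 0.18, edgeR adjusted p = 0.952). The counts of SYT15 are uncertain, because 95.4% of the 1339 stretches of 31 bases in its reference transcript also occur in SYT15B, and 71.9% of those in all its annotated transcripts. SYT15B had 4.89 CPM in knockdown and 5.05 CPM in control libraries (log2 fold change -0.05, edgeR adjusted p = 0.767). Its antisense neighbour SYT15-AS1 shares no exon bases with it and gave a log2 fold change of -0.17 (edgeR adjusted p = 0.276).

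SYT14 and SYT16, members that also lack calcium binding, and SYT17, a peripheral membrane protein first described in rat brain and kidney, were close to the detection limit. SYT14 had 0 counts in all libraries except control library B, which had 1 count. A count of 0 allows at most 3 counts, which is 0.0296 to 0.0298 CPM in the knockdown libraries and 0.029 and 0.0292 CPM in control libraries A and C, for counting error only. SYT16 had 5, 5 and 3 counts in the knockdown libraries, against 6, 5 and 8 counts in the control libraries. SYT17 had 4, 2 and 6 counts in the knockdown libraries, against 3, 4 and 6 counts in the control libraries. The groups overlapped for all 3 genes, and no difference was detectable at this depth.

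Of the calcium sensors, SYT1 (ENSG00000067715, chr12:78863993-79452008, plus strand), which triggers fast transmitter release at synapses, was the most abundant. It had 613, 739 and 602 counts in the knockdown libraries, against 468, 498 and 456 counts in the control libraries. Each knockdown library was above each control library. SYT1 averaged 6.7 ± 0.82 CPM in the knockdown libraries and 4.44 ± 0.269 CPM in the control libraries (SD, n = 3 each), and rose by 0.59 on the log2 scale (SE 0.12, 51.0% higher, edgeR adjusted p = 0.00203). The call held without any 1 library, but in 3 limma fits to log2(FPKM + pseudocount) the adjusted p was 0.0569 to 0.146, with the same direction.

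SYT7 (ENSG00000011347, chr11:61515313-61581148, minus strand), a slow, high-affinity calcium sensor that also drives fusion of lysosomes with the plasma membrane, moved the other way. It had 78, 71 and 79 counts in the knockdown libraries, against 113, 135 and 219 counts in the control libraries. The knockdown libraries lay close together and below the control libraries, of which C was highest. SYT7 averaged 0.781 ± 0.0478 CPM in the knockdown libraries and 1.45 ± 0.478 CPM in the control libraries (SD, n = 3 each), and fell by 0.89 on the log2 scale (SE 0.23, edgeR adjusted p = 0.009). Without control library C it fell by 0.59 (edgeR adjusted p = 0.0361). In deposited FPKM the groups overlapped, at 0.28, 0.13 and 0.15 in the knockdown libraries, against 0.28, 0.40 and 0.41 in the control libraries, and the FPKM per 1000 counts varied from 1.83 to 3.59 between libraries.

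SYT5, a calcium sensor of dense-core vesicles, had 4, 3 and 2 counts in the knockdown libraries, against 6, 2 and 6 counts in the control libraries. The groups overlapped and the gene was not tested. A further 7 synaptotagmin genes outside the set (SYT2, SYT3, SYT4, SYT6, SYT8, SYT9 and SYT10) had at most 13 counts in a library. SYT15B, also outside the set, was higher, at 447 to 560 counts in a library. It is not part of the order and sums of the members below.

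**Figure D2:**
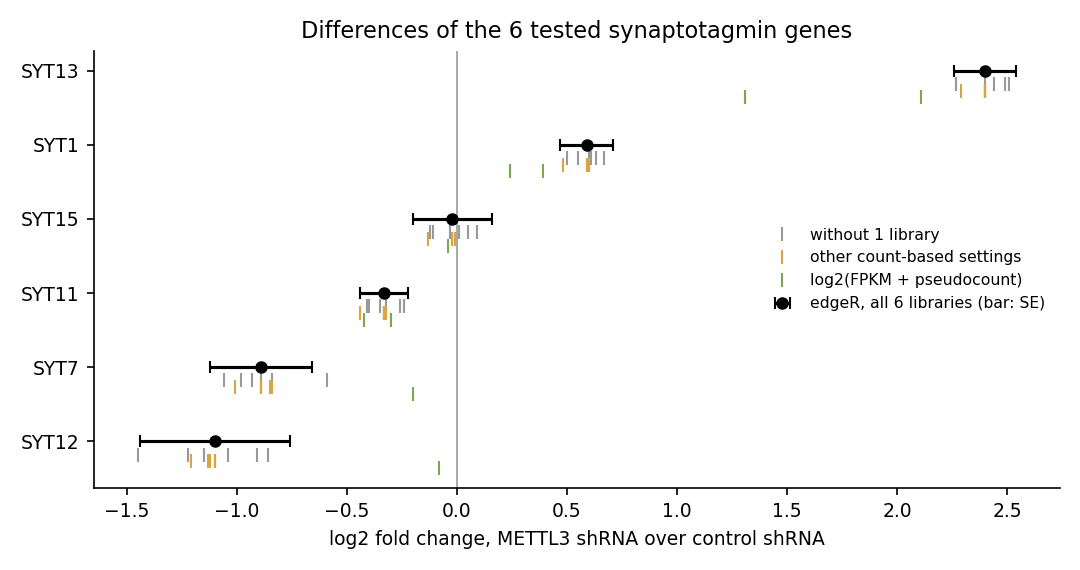
Log2 fold change, METTL3 shRNA over control shRNA, of the 6 members with enough counts, as edgeR estimates with their SE and as ticks for the alternatives (1 library left out, other count-based settings, log2 FPKM). SYT13 stands at 2.40 and SYT1 at 0.59, SYT15 lies on both sides of 0, and SYT11, SYT7 and SYT12 stay below 0 in every setting drawn. The bar and ticks of SYT13 are no test, since they come from the comparison that chose the gene.

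Levels can be compared between members only per length, in FPKM, and there the order of the leading members differed between the groups. SYT13 averaged 3.02 ± 0.467, SYT11 1.88 ± 0.235 and SYT1 1.5 ± 0.144 FPKM in the knockdown libraries, and SYT13 0.62 ± 0.0917, SYT11 2.55 ± 0.352 and SYT1 1.12 ± 0.0666 FPKM in the control libraries (SD, n = 3 each). In each of the 3 knockdown libraries the order was SYT13, SYT11, SYT1. In each of the 3 control libraries it was SYT11, SYT1, SYT13. Within the knockdown libraries the ranges of SYT11 (1.69 to 2.14 FPKM) and SYT1 (1.42 to 1.67 FPKM) lay next to each other without overlap. SYT7 and SYT15 were not separable in the knockdown libraries (0.187 ± 0.0814 and 0.203 ± 0.0252 FPKM), and SYT7 was above SYT15 in the control libraries (0.363 ± 0.0723 and 0.233 ± 0.0321 FPKM). SYT12, at 0.0567 FPKM in knockdown and 0.12 FPKM in control libraries, was below both, and the remaining members were lower still or overlapped it.

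SYT13 made up 42.5%, 48.2% and 39.0% of the summed FPKM of the 10 members in the knockdown libraries, against 13.1%, 14.1% and 9.68% in the control libraries. SYT11 made up 27% ± 4.47 in the knockdown libraries and 50.0% ± 4.38 in the control libraries, and SYT1 made up 21.5% ± 1.14 in the knockdown libraries and 22.2% ± 2.05 in the control libraries (SD, n = 3 each). The main synaptotagmin transcript of the control cells was thus SYT11 and that of the knockdown cells SYT13, with SYT1 at a similar share in both. SYT13 was chosen by its rise and is part of each sum, so these shares are a description only. In FPKM itself SYT11 had 1.88 in the knockdown libraries and 2.55 in the control libraries. The similar share of SYT1 went with 1.5 and 1.12 FPKM.

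The sum over the 10 members was 6.97 ± 0.318 FPKM in the knockdown libraries and 5.08 ± 0.256 FPKM in the control libraries (SD, n = 3 each). Without SYT13 it was 3.95 ± 0.15 FPKM in the knockdown libraries and 4.46 ± 0.341 FPKM in the control libraries, so SYT13 carried the higher sum. The deposited FPKM were used without TMM scaling. By library size alone the median log2 fold change of all tested genes was -0.11, so the lower sum without SYT13 is not read as a fall of the other members. The ratio of SYT13 to SYT11 was 1.63, 2.09 and 1.22 in the knockdown libraries, against 0.268, 0.304 and 0.176 in the control libraries. In both groups SYT13 and SYT1 were highest in library B and lowest in library C by CPM, and SYT11 was lowest in B and highest in C. The letters were not shown to pair the libraries, so this shared order is given as a measured fact only.

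**Figure D3:**
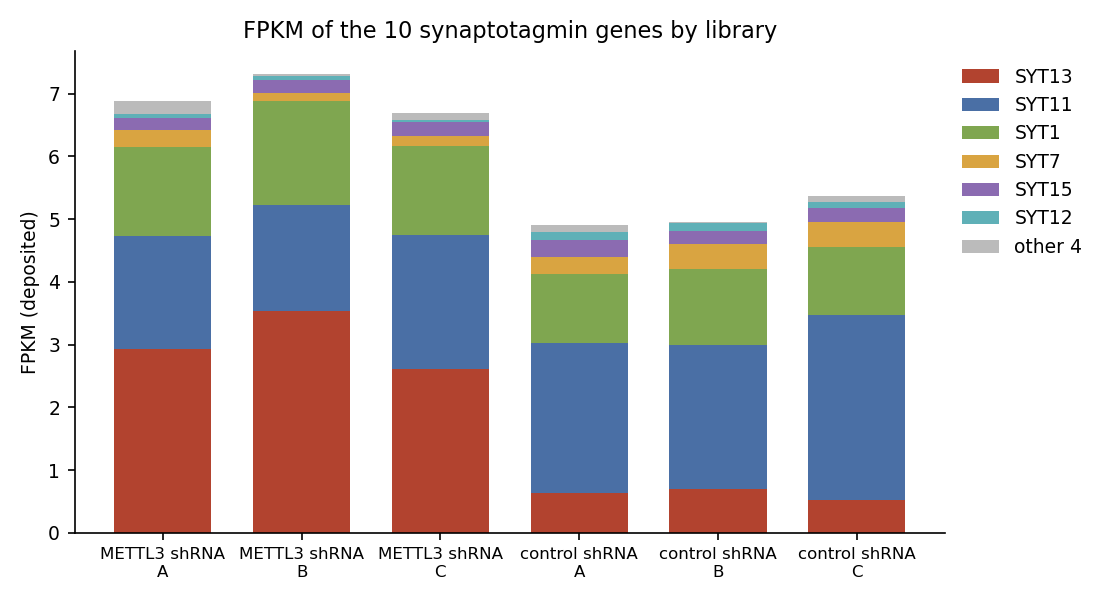
Deposited FPKM of the 10 members stacked by library, METTL3 shRNA libraries A to C left of control shRNA libraries A to C. The SYT13 block is 2.61 to 3.53 FPKM high in knockdown libraries and 0.52 to 0.70 FPKM in control libraries, while the sum of the rest is 3.79 to 4.09 FPKM in knockdown and 4.26 to 4.85 FPKM in control libraries. The FPKM are drawn without TMM scaling.

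The genes on either side of SYT13 on chromosome 11 went in opposite directions. PRDM11, a transcriptional regulator whose gene ends 5191 bases below SYT13, had 454, 529 and 635 counts in the knockdown libraries, against 896, 810 and 1015 counts in the control libraries. It fell by 0.62 on the log2 scale (SE 0.12, edgeR adjusted p = 0.0019). CHST1, a carbohydrate sulfotransferase whose gene lies 362558 bases above SYT13, had 90, 95 and 67 counts in the knockdown libraries, against 48, 36 and 60 counts in the control libraries. It rose by 0.95 (SE 0.24, edgeR adjusted p = 0.0092), a call lost without knockdown library B (adjusted p = 0.051).

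The genes whose log2 CPM followed that of SYT13 most closely over the 6 libraries, of 12525 compared, were MALL, a raft-associated membrane protein (Pearson r = 0.9985), JOSD1, a deubiquitinase (0.9983), MME, the membrane metalloprotease neprilysin (0.9977), ENSG00000284946 (0.9977) and TIMP2, a metalloprotease inhibitor (0.9976). The libraries form 2 groups far apart in SYT13, so r is a description only and rests mostly on that gap. The order within a group was not always shared. Among the control libraries SYT13 was highest in B, whereas JOSD1, ENSG00000284946 and TIMP2 were highest in A. The size of the difference varied widely among them. MME averaged 17.6 ± 1.36 CPM in the knockdown libraries and 6.61 ± 0.344 CPM in the control libraries, and MALL averaged 9.68 ± 0.168 CPM in the knockdown libraries and 7.92 ± 0.0944 CPM in the control libraries (SD, n = 3 each). Their log2 fold changes were 1.42 and 0.29.

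Synaptotagmins act on SNARE proteins together with priming factors, Rab GTPases and tethers. Lists of such genes were read beside them, with a list of other C2-domain membrane proteins, 5 lists in all. The 5 together are called the fusion machinery here as a label only. Of 124 genes of the lists present in the tables, 108 were tested; 16 rose, 27 fell and 65 did not pass, against 16.5% higher and 16.9% lower over all tested genes. The list of other C2-domain membrane proteins held 8 of the 16 rises and 1 of the 27 falls. The median log2 fold change of the 108 genes was -0.04, against -0.003 over all tested genes. Scaled by library size alone, which moved the median of all tested genes to -0.11, the counts were 7 higher and 38 lower. Without knockdown library B they were 7 and 16. The higher calls numbered 8 without control library C, and 10 without control library B.

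Of 36 tested SNARE proteins, the fusion engine itself, 4 rose (11.1%), 8 fell (22.2%) and 24 did not pass (median log2 fold change -0.05). Over all tested genes, 16.5% rose and 16.9% fell. YKT6, a SNARE of Golgi and autophagosome fusion, averaged 151 ± 12.5 CPM in the knockdown libraries and 269 ± 27 CPM in the control libraries (SD, n = 3 each) and fell by 0.84 (SE 0.09, edgeR adjusted p = 7.34e-05). VTI1A, a SNARE of the trans-Golgi network, fell by 0.51 (edgeR adjusted p = 0.00204). Among those that rose, STX2 and STX4, SNAREs of the plasma membrane, did so by 0.49 (edgeR adjusted p = 0.00208) and 0.26 (edgeR adjusted p = 0.0369), and VAMP2, a SNARE of secretory vesicles, by 0.26 (edgeR adjusted p = 0.0212). None of these 3 passed in the 3 limma fits to log2 FPKM (adjusted p 0.0594 to 0.362). The counts of calls were 2 higher without control library C, and 4 lower without knockdown library A or B and 5 lower without control library B.

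Of 23 tested SM proteins, priming factors, complexins and disassembly factors, 1 rose (4.35%), 9 fell (39.1%) and 13 did not pass (median log2 fold change -0.23). The shares over all tested genes were 16.5% higher and 16.9% lower. CPLX1, a complexin that clamps assembled SNAREs for synaptotagmin, averaged 1.75 ± 0.124 CPM in the knockdown libraries and 3.68 ± 0.253 CPM in the control libraries (SD, n = 3 each) and fell by 1.07 (SE 0.13, edgeR adjusted p = 0.000133). SCFD2, a member of the Sec1 family, fell by 0.59 (edgeR adjusted p = 0.000374), and NSF, the ATPase that takes SNARE complexes apart, fell by 0.59 (edgeR adjusted p = 0.000457). UNC13D, a priming factor of secretory lysosomes, rose by 0.27 (edgeR adjusted p = 0.0363), but this call was lost when any library except control C was left out (adjusted p 0.0655 to 0.122). CPLX3 had the largest fitted fall of the list, at -2.50, chosen here after its value was seen. It had 8, 9 and 8 counts in the knockdown libraries, against 18, 29 and 112 counts in the control libraries, and control library C held most of the control counts. Without control library C it fell by 1.37 (edgeR adjusted p = 0.0291).

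Of 19 tested Rab3 and Rab27 GTPases and effectors, which bring vesicles to the plasma membrane, 2 rose (10.5%), 6 fell (31.6%) and 11 did not pass (median log2 fold change -0.00). Among all tested genes, 16.5% were higher and 16.9% lower. The synaptotagmin-like proteins, Rab27 effectors that also carry tandem C2 domains, did not move together. SYTL2 averaged 4.65 ± 0.512 CPM in the knockdown libraries and 8.32 ± 0.253 CPM in the control libraries (SD, n = 3 each) and fell by 0.84 (SE 0.11, edgeR adjusted p = 0.000144). SYTL3 averaged 62.2 ± 11.3 CPM in the knockdown libraries and 39.3 ± 8.75 CPM in the control libraries and rose by 0.66 (SE 0.15, edgeR adjusted p = 0.00568). SYTL4 rose by 0.58 (edgeR adjusted p = 0.0159), a call lost without knockdown library A (adjusted p = 0.0707) or B (adjusted p = 0.0645). RAB3GAP2, a subunit of the Rab3 GTPase-activating complex, fell by 0.49 (edgeR adjusted p = 0.00142) and RIMS2, an active-zone scaffold, by 0.98 (edgeR adjusted p = 0.0017).

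Of 11 tested genes of the exocyst list, the tether of vesicles at the plasma membrane, 1 rose (9.09%), 3 fell (27.3%) and 7 did not pass (median log2 fold change -0.13). Over all tested genes, the shares were 16.5% higher and 16.9% lower. EXOC3L1 averaged 0.203 ± 0.0449 CPM in the knockdown libraries and 0.486 ± 0.0726 CPM in the control libraries (SD, n = 3 each) and fell by 1.26 (SE 0.28, edgeR adjusted p = 0.00429). EXOC1 fell by 0.24 (edgeR adjusted p = 0.023) and EXOC3 rose by 0.29 (edgeR adjusted p = 0.0144). Both calls were lost without knockdown library B (adjusted p = 0.0848 for EXOC1 and 0.0511 for EXOC3) and control library B (0.0888 and 0.0533), that of EXOC1 also without control library A (0.0638) and that of EXOC3 also without control library C (0.0703). With knockdown library B or control library A left out, 1 gene of the list fell, and no gene of the list was called higher by library size alone.

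Of 19 tested genes of the list of other C2-domain membrane proteins, 8 rose (42.1%), 1 fell (5.26%) and 10 did not pass (median log2 fold change 0.17). One of the rises is FER1L4, annotated as a transcribed pseudogene of the ferlin family, and among the 18 protein-coding genes 7 rose (38.9%) and 1 fell (5.56%). All tested genes had 16.5% higher and 16.9% lower. DOC2A, a calcium sensor of spontaneous release with tandem C2 domains, had 1283, 1291 and 1004 counts in the knockdown libraries, against 760, 888 and 728 counts in the control libraries. The groups did not overlap, and DOC2A rose by 0.73 (SE 0.13, edgeR adjusted p = 0.000928). MCTP1, a membrane protein with several C2 domains, rose by 0.45 (edgeR adjusted p = 0.00121) and ESYT2, an extended synaptotagmin that tethers the endoplasmic reticulum to the plasma membrane, by 0.35 (edgeR adjusted p = 0.00445). C2CD2L, a lipid transfer protein of the same contact sites, was the 1 that fell, by 0.33 (edgeR adjusted p = 0.00497). By library size alone 3 rose and 2 fell, and the count of rises was 3 without knockdown library A, knockdown library B or control library C, 5 without control library A and 4 without control library B.

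**Figure D4:**
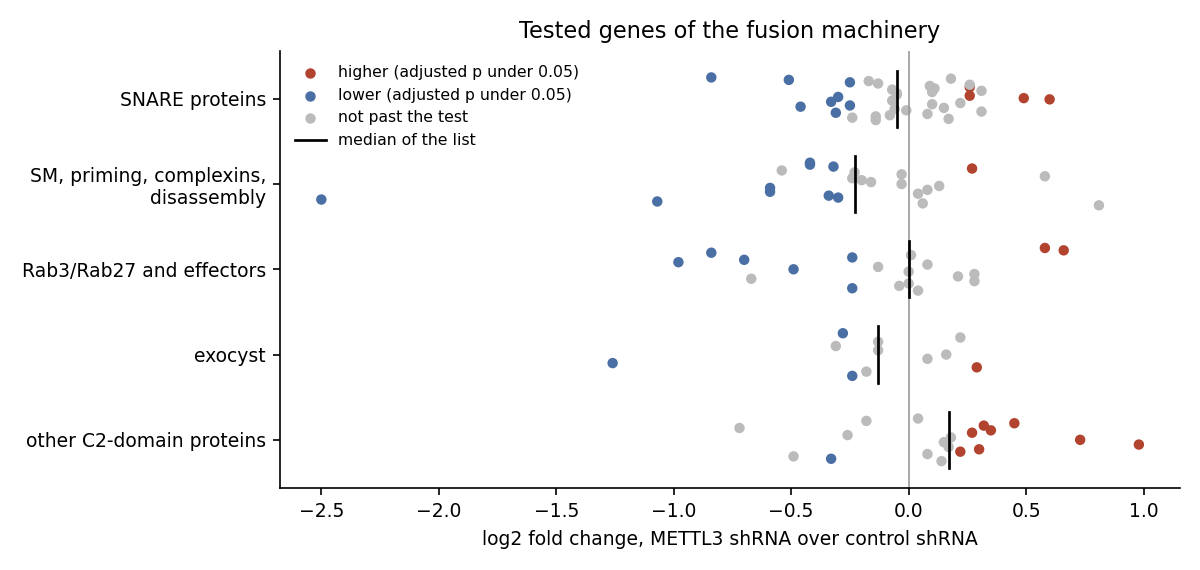
Log2 fold change, METTL3 shRNA over control shRNA, of the 108 tested genes, 1 of them a pseudogene, in 5 lists labelled fusion machinery. Of these lists, 1 holds other C2-domain membrane proteins. Each gene is 1 point, coloured by the edgeR call, with a line at each list's median. The medians run from -0.23 (SM proteins, priming factors, complexins and disassembly) to 0.17 (other C2-domain membrane proteins), and each list holds genes on both sides of 0.

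Synaptotagmins are best known from neurons and endocrine cells, so markers of those cells were read in the same libraries. Of 10 neuroendocrine markers, INSM1 and PCSK2 were at 0 in all 6 libraries and CHGA had at most 1 count in a library. Their summed level was 0.539 to 0.794 CPM in the knockdown libraries and 0.582 to 0.759 CPM in the control libraries, and the ranges overlapped. Of the 10, 2 were tested: SCG2, at 3 to 28 counts, fell by 1.79 (edgeR adjusted p = 0.0122, lost without knockdown library B at 0.066 or control library C at 0.0641), and SYP, which marks synaptic vesicles, had a log2 fold change of 0.47 (edgeR adjusted p = 0.173). Of 6 neuron markers, STMN2 and ELAVL4 were at 0 in all libraries, RBFOX3 rose by 0.59 (edgeR adjusted p = 0.000204), TUBB3 fell by 0.48 (edgeR adjusted p = 0.000485), and the sum was 119 to 132 CPM in the knockdown libraries and 129 to 131 CPM in the control libraries. Summed leukocyte markers (5 genes, CD3E at 0) were 0.106 to 0.17 CPM in the knockdown libraries and 0.115 to 0.318 CPM in the control libraries, and 4 endothelial markers summed to 0.0898 to 0.116 CPM in the knockdown libraries and 0.0865 to 0.136 CPM in the control libraries. The 5 fibroblast markers summed to 2.16 to 2.35 CPM in the knockdown libraries and 3.85 to 4.58 CPM in the control libraries, with LUM and PDGFRB lower in the knockdown libraries, and the 9 renal markers to 2770 to 3880 CPM in the knockdown libraries and 1680 to 2190 CPM in the control libraries, most of it VIM, with VIM higher in the knockdown libraries (log2 fold change 1.02, edgeR adjusted p = 0.000374). The part of these markers in the synaptotagmin differences was not tested.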

How the data were processed

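RNA-seq libraries of 786-O cells were analysed from the deposited tables. Ribosomal RNA was removed from total RNA, and paired reads came from a DNBSEQ instrument, per the labels' protocols. GRCh38, Salmon and STAR 2.7.10b stand in the submitters' processing notes without their roles. The annotation release and strand setting were not given in the sources used here. The authors deposited whole-number counts per gene and FPKM, a level per transcript length, for 6 libraries. Columns named for a control shRNA form the control group; the other 3, which bear an unexplained number, were taken by elimination as METTL3 shRNA libraries, and the METTL3 level is the check.

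Counts were fitted with edgeR 4.0.16 (R 4.3.3, limma 3.58.1) after filterByExpr (10 counts, 0.0981 CPM at the median total; 18740 genes) and TMM scaling, by its quasi-likelihood F test, with p adjusted after Benjamini and Hochberg over all tested genes at 0.05; the SE of a log2 fold change was derived from the F statistic. CPM were taken relative to the TMM-scaled total. Of the 10 members, 6 reached the filter, all of them in every library. Same-group libraries were further apart than counting noise, with a chi-square of 15.2 to 57.3 per degree of freedom, and the spread between libraries limits precision more than counting except in genes of few counts. Gene positions, overlaps and transcripts are from GENCODE 29, whose identifiers matched 58308 of 61860 rows.

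The members and lists were chosen with earlier results of these data known. Named genes are all members, METTL3, the 3 smallest p of each list with any gene that moves against the majority of its calls, the 5 genes most correlated with SYT13, genes whose exons overlap a member, and the neighbours of SYT13; some genes of the lists are not reported here. Alternatives were other scalings, DESeq2 1.42.0, limma-voom, other filters, limma on log2(FPKM + 1) and log2(FPKM + 0.1), a replicate block and leaving out each library. Same-letter libraries of the groups correlated in their deviations at -0.018 (A), -0.049 (B) and 0.169 (C), so the letters were not taken as pairs.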

Additional observations from a re-analysis of the deposited data

How the results depend on the processing

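None of the genes named with a passing test, nor SYT13, changed direction in any alternative that gave it a value. Counts over all genes, the synaptotagmin genes and the whole fusion machinery are given where they moved by over 1.5 times, and those of single lists only in part. By library size alone, 1985 genes were higher and 4727 lower (29.6% of calls higher, against 49.4% with TMM and 49.8% with DESeq2-type factors), and 7 genes of the fusion machinery were higher. In limma fits to log2(FPKM + 1) and log2(FPKM + 0.1) of genes at 0.5 FPKM or more in 3 libraries, and to log2(FPKM + 1) without a filter, 1588, 1568 and 1027 genes were higher, 7, 7 and 2 of the fusion machinery were higher, 0 synaptotagmin genes besides SYT13 were higher in each, and 1, 1 and 0 were lower; the unfiltered fit gave 17 lower genes of the fusion machinery. In these 3 fits, 4, 4 and 2 of the other C2-domain genes were higher (8 by counts), 0 SNARE genes were higher (4 by counts), and 3 Rab3 and Rab27 genes were lower in each (6 by counts). The exocyst list had 5 lower genes by library size alone (3 with TMM) and 2 higher genes with DESeq2 (1 with edgeR). Fewer members were tested in the filtered FPKM fits, since SYT7, SYT12 and SYT15 are below that limit. A pseudocount near or above the level of a gene shrinks its difference, and the deposited FPKM were used without TMM scaling. SYT13 was at 1.31 with log2(FPKM + 1) and 2.11 with log2(FPKM + 0.1), against 2.29 in counts scaled by library size alone. It was at 2.27 to 2.51 when any 1 library was left out of the counts. These values of SYT13 describe the comparison that chose it and are no test. Leaving out each library gave 2053 to 3265 genes higher and 1959 to 3324 lower (lowest in both without knockdown library B), 7 to 16 higher and 16 to 28 lower in the fusion machinery, and 1 higher and 1 to 3 lower synaptotagmin genes besides SYT13 (1 lower without knockdown library B or control library A). With a replicate block by column letter, 3421 genes were higher and 3564 lower, 19 and 30 in the fusion machinery, and 1 and 3 among the synaptotagmin genes besides SYT13; the letters share only a letter and the block changed no call of a member. Depth limits SYT5, SYT14, SYT16 and SYT17, which gave no test, and SYT12.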
